A study of Populus tremula x Populus alba with 72 samples.

Results

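The genes described here are 200 poplar genes whose messenger RNA fell as control leaves aged and was lower again in expanded leaves after prolonged exposure to 100 ppb ozone. They were chosen from the normalised read counts of 34699 genes in 3 steps. First, 23307 genes had a group mean of at least 100 in any group, and 2703 of these fell by at least 1.5 on the log2 scale between day 2 and day 13 in growing control leaves. Next, 671 of them were at least 1 log2 unit lower at 100 ppb than in control expanded leaves on day 13, and 493 of those were not lower by 0.5 or more on day 2. Last, the 200 genes with the largest day 13 difference were kept, which leaves 293 others that met every limit. All 200 passed the filter on low values and were tested.

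The RNA came from leaves of hybrid poplar (Populus tremula x alba), all of a single micropropagated clone, INRAE 717-1B4, aged 2.5 months when exposure began. Growing and expanded leaves were taken from plants kept in charcoal-filtered air (control) or in that air with 80 ppb or 100 ppb ozone added during 13 hours of the day. Sampling after 2, 8 and 13 days gave 18 groups of 4 libraries. The 3 differences that chose the genes used 6 groups, which were expanded leaves in control air and at 100 ppb on days 2 and 13, and growing control leaves on days 2 and 13. The other 12 groups, among them all groups of day 8, entered none of these differences, and tests are given only between those. The limit on the group mean was read in all 18 groups. For 194 of the 200 genes it was met in the 6 groups, and for the other 6 genes only in growing leaves under ozone on day 2: all 6 at 100 ppb, and Potri.001G141400 at 80 ppb as well. Counts without these 6 genes are given beside the comparisons that use growing leaves of day 2.

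A poplar leaf grows by cell division at first, then by cell expansion while its chloroplasts and walls are built, and genes for these steps are used heavily in young leaves and much less once the blade is full-sized. Ozone enters through the stomata and breaks down to reactive oxygen species in the leaf, and in poplars long exposure is known to lower photosynthesis and to bring leaf senescence forward. The deposited table gives gene identifiers of the Potri form without names or products, so no function is given for any gene here, and the labelled leaf stages were not checked against marker genes.

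Reads counted on genes came to between 23.2 M and 54.3 M per library, with a median of 39.4 M (M for mega-reads). The median of all 27780 tested genes lay between 8.60 and 8.80 on the log2(normalised count + 1) scale in the 72 libraries. The labels name the 4 libraries of a group only as replicates, so p-values measure the spread between these libraries, which may be technical in part. All log2 changes below are on the log2(normalised count + 1) scale, which understates the change of low genes, and carry their standard error. Group means are given ± SD with n = 4. In bulk leaf RNA, fewer cells of a type and less RNA per cell cannot be told apart.

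The values that chose the genes are given as a description only. The day 13 difference between 100 ppb and control in expanded leaves had a median of -1.85 over the 200 genes and spanned -4.15 to -1.48. The fall in growing control leaves from day 2 to day 13 had a median of -3.09 and spanned -8.94 to -1.52. The day 2 difference between 100 ppb and control in expanded leaves had a median of -0.10, with extremes of -0.50 and 1.43. The last gene kept, Potri.009G031800, and the first left out, Potri.003G175900, both had a day 13 difference of -1.48. At the limit on the leaf age fall, Potri.016G130201 was kept at -1.52 and Potri.005G218200 was left out at -1.47. At the limit on day 2, Potri.001G094800 was kept and Potri.017G081300 left out, both at -0.50. With a pseudocount of 8 only 246 genes met the limits, and 122 of the 200 genes were also among the first 200 chosen that way. Leaving out single libraries of the 24 used left 403 to 570 genes within the limits, with 150 to 199 of the 200 genes shared.

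Most of the set was highest in young leaves, which the rule favoured by asking for a fall after day 2 in growing control leaves. The place of the highest mean is therefore a description and no test of the name. For 191 of the 200 genes the group with the highest mean was a growing leaf group of day 2, and for 3 more it was another growing leaf group. The other 6 were highest in an expanded leaf group, and 5 of them in control expanded leaves of day 13: Potri.007G036300, Potri.007G114200, Potri.007G113700, Potri.017G046750 and Potri.017G047400. These 5, singled out after their values were seen, owe that place to replicate 2 of that group, where they had normalised counts of 329 to 694, against at most 141 in any of the other 71 libraries. Without that library only 1 of the 5 was still at least 1 log2 unit lower at 100 ppb on day 13. All 5 also met the limit on the group mean only through that library, and they are counted among the 194 genes. On day 8, in libraries that did not choose them, their change at 100 ppb in expanded leaves lay between -0.95 and -0.05, with adjusted p from 0.469 to 0.973 in limma (Benjamini-Hochberg). A further pair, Potri.005G254366 and Potri.005G254432, had identical reads in all 72 libraries, so the set holds 199 distinct profiles.

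The level of the set differed most between leaf ages. The median log2 level over the 200 genes was taken in each library. Growing leaves of day 2 had 9.03, 9.44, 9.06 and 8.80 in control air, 8.86, 9.21, 8.67 and 9.20 at 80 ppb, and 8.83, 9.84, 8.69 and 9.26 at 100 ppb. The 3 treatments overlapped there. On day 8 the growing leaves had 7.37, 7.50, 7.48 and 7.37 in control air, 7.11, 7.63, 7.22 and 6.80 at 80 ppb, and 7.21, 7.36, 7.18 and 7.68 at 100 ppb. The treatments again overlapped, all below the level of day 2. On day 13 they had 6.13, 6.30, 5.97 and 5.52 in control air, 5.90, 5.96, 5.17 and 5.94 at 80 ppb, and 5.29, 5.24, 4.51 and 5.01 at 100 ppb. All 4 libraries at 100 ppb were below the lowest control library, while the 80 ppb libraries overlapped both.

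In expanded leaves the same quantity was lower on every day. On day 2 it was 6.90, 6.55, 6.80 and 6.68 in control air, 6.66, 6.93, 6.59 and 6.61 at 80 ppb, and 6.33, 7.10, 6.62 and 6.71 at 100 ppb. The treatments overlapped, as the rule asked of the 100 ppb group. On day 8 it was 5.35, 5.80, 5.38 and 5.40 in control air, 5.59, 5.75, 4.87 and 4.96 at 80 ppb, and 4.32, 4.82, 4.69 and 4.15 at 100 ppb. The 100 ppb libraries were the 4 lowest of that day, and the 80 ppb libraries fell into a higher and a lower pair. On day 13 it was 5.13, 4.77, 5.25 and 5.09 in control air, 4.51, 4.20, 4.95 and 4.63 at 80 ppb, and 2.96, 3.33, 3.62 and 2.54 at 100 ppb. The 100 ppb libraries stood clear of the rest, in the group that chose the genes. Many genes were close to no reads there: 109 of the 200 had a group mean under 10, against 32 in control leaves, and 15 to 30 of them had no read in a given library.

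**Figure D1:**
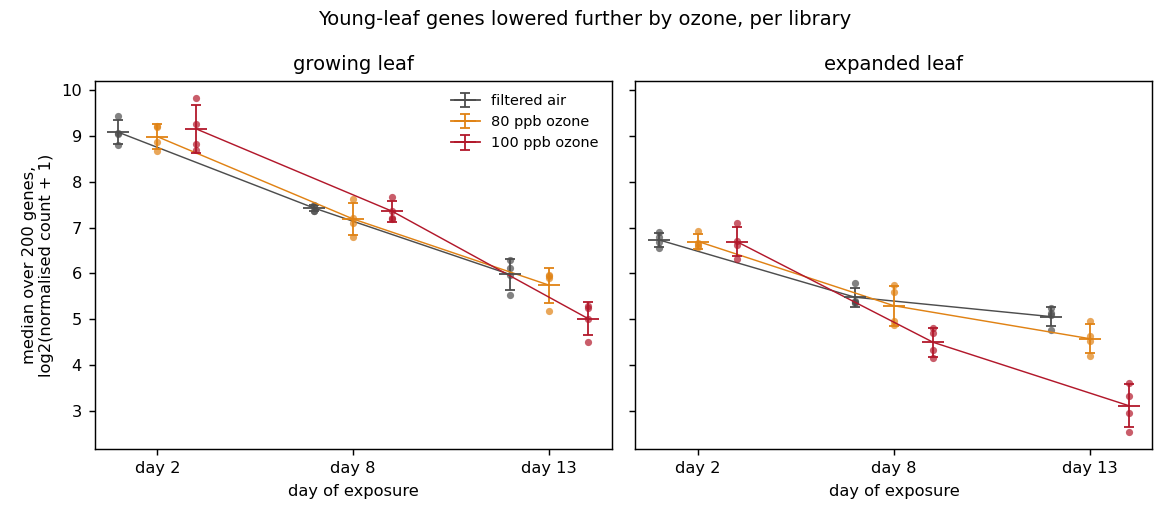
Median log2(normalised count + 1) over the 200 genes in each library (points), with the mean of the 4 libraries and its SD (bars), by day of exposure, for growing leaves (left) and expanded leaves (right). The level falls with the day in both leaf positions, and the 100 ppb libraries lie below the control libraries on days 8 and 13 in expanded leaves and on day 13 in growing leaves.

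The genes with the largest day 13 difference, or with the most reads, show how far single genes can move. Potri.004G222400 had the most negative difference on day 13. In expanded leaves of day 8 it had normalised counts of 73.3, 31.7, 20.2 and 17.9 at 100 ppb, against 126, 632, 257 and 343 in control air. The groups did not overlap. Its change was -3.21 ± 0.77, with an adjusted p of 0.00253 in limma. At 80 ppb on that day it had 285, 386, 19.98 and 93.3, which span both other groups. In growing leaves of day 8 it averaged 126 ± 54.3 at 100 ppb and 256 ± 54.5 in control air. That change of -1.15 ± 0.77 was not called, with an adjusted p of 0.97 in limma.

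Potri.006G250100 had the next most negative difference on day 13. In expanded leaves of day 8 it had 12.7, 122, 17.1 and 1.12 at 100 ppb, against 31.2, 41.0, 33.9 and 227 in control air. One high library in each group makes them overlap. The change of -1.84 ± 0.71 had an adjusted p of 0.058 in limma, which misses the threshold of 0.05. Without replicate 2 at 100 ppb the gene passed, and over all alternatives its adjusted p ranged from 0.0024 to 0.454. In growing control leaves of the same day it had 4539, 5115, 4158 and 2611. That is 6.12 ± 0.71 log2 units above expanded control leaves, with an adjusted p of 2.1e-10.

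Potri.001G348900 had the highest mean of the set in growing control leaves of day 2, by read counts that are not divided by gene length. On day 8 it had 2681, 11808, 18483 and 10129 in expanded leaves at 100 ppb, against 69659, 33359, 10016 and 31963 in control air. The groups overlapped through control replicate 3 and replicates 2, 3 and 4 at 100 ppb. The change was -1.74 ± 0.68, with an adjusted p of 0.0592 in limma. It passed without control replicate 3, without 100 ppb replicate 3, in edgeR and in DESeq2, and over all alternatives the adjusted p ranged from 0.0156 to 0.293. At 80 ppb it had 3730, 7591, 4804 and 6319 in expanded leaves on day 13, against 233662, 350016, 245388 and 329173 on day 2. This change from day 2 to day 13 under ozone was -5.72 ± 0.68, with an adjusted p of 4.03e-10 in limma.

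Potri.006G141400 was second by reads in growing control leaves of day 2 and second by change among the genes called on day 8. In expanded leaves of day 8 it had 650, 340, 283 and 204 at 100 ppb, against 4522, 10019, 1085 and 3851 in control air. The groups were clear of each other, with a change of -3.46 ± 0.91 and an adjusted p of 0.00549 in limma. In growing leaves of that day it had 13501, 12970, 11346 and 17497 at 100 ppb, against 12938, 13444, 18349 and 28456 in control air. These overlapped, and the change there was -0.35 ± 0.91, with an adjusted p of 1. In 2 groups a single library stood far above the others for this gene: 44299 in replicate 2 of expanded leaves at 100 ppb on day 2, where the others had 4735 to 9830, and 3184 in replicate 3 of expanded leaves at 100 ppb on day 13, where the others had 41.2 to 136.

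**Figure D2:**
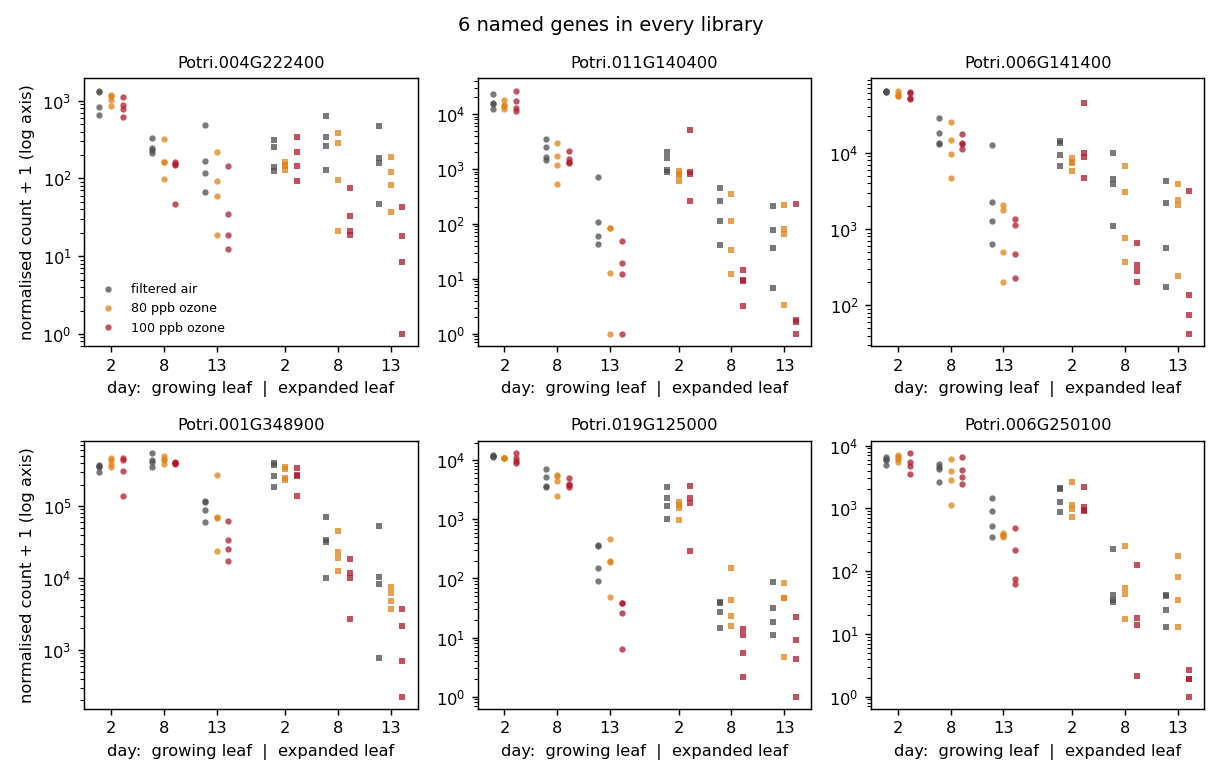
Normalised count + 1 (log axis) of 6 genes in every library, by day, with growing leaves as circles on the left of each panel and expanded leaves as squares on the right, and control air, 80 ppb and 100 ppb side by side. Counts fall by orders of magnitude from day 2 to day 13, and in expanded leaves of day 8 the 100 ppb libraries of Potri.004G222400 and Potri.006G141400 lie below all 4 control libraries.

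The first comparison asked whether the ozone difference of day 13 was already present on day 8, in expanded leaves outside the differences that chose the genes. At 100 ppb the set was lower than in control air by a median change of -1.0, and 193 of the 200 genes had a change below 0. Of the 200, 96 fell and none rose at an adjusted p under 0.05 in limma. Over all tested genes 8.51% were called lower and 11.2% higher. The changes of the set ranged from -4.26 to 0.44, and 102 genes were at least 2-fold lower, 73 of them called. The 100 ppb and control libraries did not overlap for 83 genes, all lower, where 8.89% of all genes were lower without overlap. At an unadjusted p under 0.05 there were 146 genes, all lower, where 15.9% of all genes were lower with such a p. The called genes had a median control mean of 89.8 and the 104 not called a median of 27.0, yet 97 of those 104 also had a change below 0. edgeR called 82 genes lower (7.9% of all genes) and DESeq2 102 (9.08%). Leaving out control replicate 2 gave 51 calls, leaving out replicate 1 at 100 ppb gave 59 and leaving out replicate 4 gave 44. There were 39 when only the 8 compared libraries were fitted (3.15% of all genes).

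Of the genes called, Potri.011G140400 had the largest change. It had 8.15, 13.6, 8.54 and 2.24 at 100 ppb, against 256, 447, 40.3 and 114 in control air. The lowest control library stood above the highest ozone library. The change was -4.26 ± 1.2 with an adjusted p of 0.00947 in limma, and 0.056 without 100 ppb replicate 4, within a range of 0.000497 to 0.056 over all alternatives. The same gene had 1510, 1316, 1259 and 2136 in growing leaves at 100 ppb and 1664, 1454, 2540 and 3508 in growing control leaves, which overlap. In expanded leaves at 100 ppb, replicate 2 of day 2 (5099, others 261 to 880) and replicate 3 of day 13 (228, others 0 to 0.82) stood far above the rest of their groups, as for Potri.006G141400.

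Other young-leaf genes are set beside these values without a test. The 293 other genes within the limits had a median change of -0.66 on day 8, and 86 of them (29.4%) were called lower. A further 633 genes also fell with leaf age in growing control leaves but differed by less than 0.25 between 100 ppb and control on day 13. Their median change on day 8 was -0.01, with 15 called lower and 14 called higher. Across the 200 genes, the day 8 change at 100 ppb and the day 13 difference that chose them had a Spearman correlation of 0.39. The 2 use different libraries, and genes are not independent replicates.

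**Figure D3:**
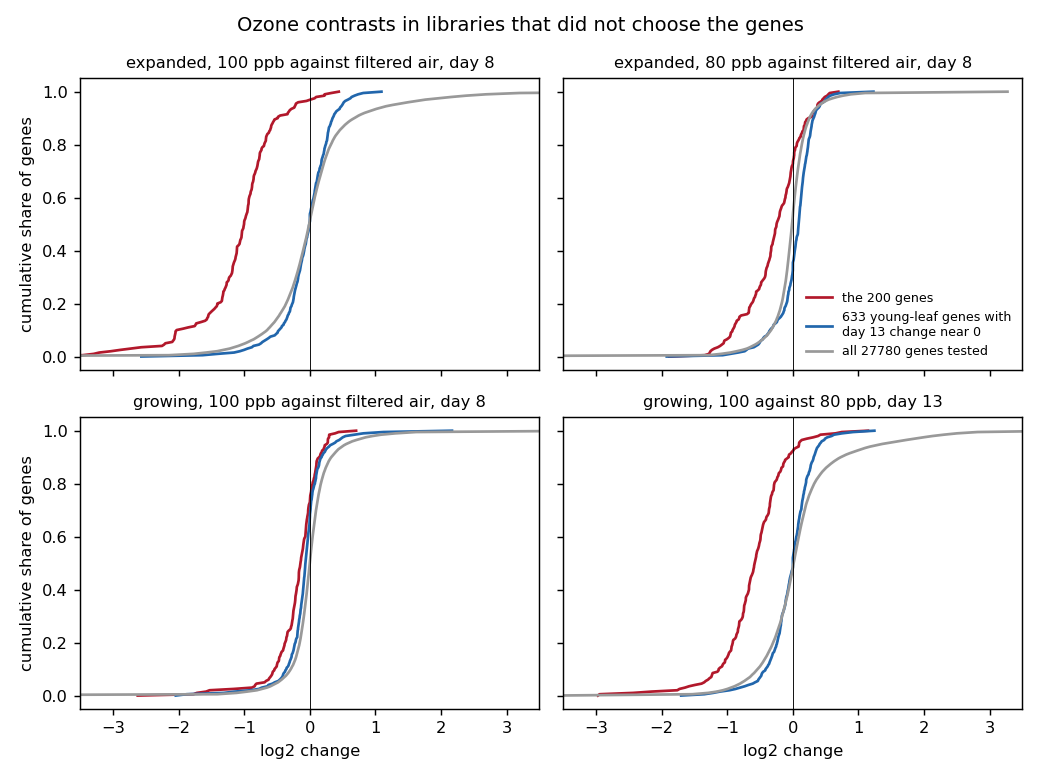
Cumulative share of genes (vertical axis) by log2 change (horizontal axis) in 4 ozone contrasts between libraries that did not choose the genes: the 200 genes (red), 633 young-leaf genes with a day 13 difference near 0 (blue) and all 27780 tested genes (grey). The red line lies left of the others for 100 ppb in expanded leaves on day 8 (median -1.0) and in growing leaves on day 13 (median -0.58 against 80 ppb), less so at 80 ppb (median -0.25), and close to them in growing leaves on day 8 (median -0.15).

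At 80 ppb on day 8 the expanded leaves showed a smaller difference. The median change against control was -0.25, and 145 genes had a change below 0. limma called 0 of the 200 lower, as did edgeR and DESeq2, with 0.0036% of all genes called lower, and 15 genes had an unadjusted p under 0.05, all lower (1.75% of all genes). At 100 ppb the set was lower than at 80 ppb by a median change of -0.76, with 187 genes below 0. In that comparison, which shares its 100 ppb libraries with the first, 37 genes fell and none rose, where 3.04% of all genes were called lower and 5.11% higher. The groups did not overlap for 28 genes, all lower (5.33% of all genes).

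The count against 80 ppb rests on few libraries. It was 6 without 100 ppb replicate 1, 71 without replicate 2 and 0 without replicate 4. It was 0 without 80 ppb replicate 1, 2 without replicate 2 and 58 without replicate 3. With the 8 compared libraries alone it was 0, and DESeq2 called 56 (4.15% of all genes). The libraries at 80 ppb form 2 pairs, with replicates 1 and 2 above replicates 3 and 4 in the median of the set. The gene with the largest change among those called was Potri.019G125000, with 4.53, 10.2, 13.2 and 1.12 at 100 ppb, against 149, 42.5, 14.4 and 22.0 at 80 ppb. Its change was -2.57 ± 0.74, with an adjusted p of 0.0263 in limma (0.00222 to 0.215 over all alternatives). Potri.016G052500 followed with 29.0, 17.0, 10.9 and 13.4 at 100 ppb, against 198, 223, 31.1 and 54.9 at 80 ppb. Its change was -2.44 ± 0.61, with an adjusted p of 0.0143 (0.000802 to 0.168). Both lost the call without 80 ppb replicate 1 or 2 or 100 ppb replicate 4, and Potri.019G125000 also without 100 ppb replicate 1.

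In growing leaves of day 8 no member passed the test. The median change was -0.15 at 100 ppb, with 146 genes below 0, and -0.23 at 80 ppb, with 166 below 0. These are 73.0% and 83.0% of the set, where 50.1% and 51.2% of all genes were below 0. The lean was shared by other young-leaf genes. Below 0 were 66.7% and 72.5% of the 633 genes with a day 13 difference near 0. For the 293 others within the limits the shares were 65.9% and 87.0%. limma, edgeR and DESeq2 each called 0 of the 200 at either level, where limma called 0.0108% of all genes lower and 0.0288% higher at 100 ppb, and 0.0% lower at 80 ppb. At an unadjusted p under 0.05 there were 4 genes at 100 ppb and 10 at 80 ppb, all lower. These are 2.0% and 5.0% of the set, where 5.92% and 4.46% of all genes had such a p in either direction and 2.70% and 2.21% were lower with it. The difference between the leaf positions was tested directly, in a contrast added after the data were seen. The response to 100 ppb in growing leaves minus that in expanded leaves had a median of 0.87, with 190 genes above 0. limma called 0 genes and edgeR 0, with 0.0252% of all genes called higher in each. DESeq2 called 2 higher (0.22% of all genes) and the fit of the compared libraries alone 2 (0.13%). At an unadjusted p under 0.05 there were 55 genes, all with the higher response in growing leaves. Over all genes 14.6% had such a p in either direction. That share includes 8.13% with the lower response in growing leaves, and the rest had the higher response there.

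Growing control leaves held more of these transcripts than expanded control leaves of the same day. On day 8 the median change between the positions was 1.88, and 191 genes were above 0. Of the 200, 161 were called higher in growing leaves and none lower in limma, where 27.1% of all genes were called higher and 27.2% lower. The share called higher was 80.5% for the set, 83.3% for the 293 others within the limits and 75.4% for the 633 young-leaf genes. Equal library totals moved the all-gene median to -0.32 and the all-gene split to 4692 higher and 12248 lower, against 7540 and 7566, while the median of the 200 genes was 1.57. edgeR and DESeq2 each called 1 of the 200 lower in growing leaves. Potri.019G125000 had 5270, 3588, 3675 and 7238 in growing leaves, against 37.3, 39.0, 13.4 and 26.2 in expanded leaves, a change of 7.41 ± 0.74 with an adjusted p of 2.07e-12. At the other end, Potri.010G190600 had 44.3 ± 11.8 in growing leaves and 109 ± 59.7 in expanded leaves, a change of -1.13 ± 0.60 with an adjusted p of 0.106.

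The fall from day 2 to day 13, by which the genes were chosen in control leaves, was also measured under ozone. Under ozone, leaf age, length of exposure and sampling day change together and cannot be told apart. The fall was not particular to the set. Among the 633 young-leaf genes with a day 13 difference near 0, limma called 632 lower at 80 ppb and 631 at 100 ppb. In growing leaves at 80 ppb, day 13 was below day 2 by a median change of -3.18, and 199 of the 200 genes were called lower in limma, where 35.9% of all genes were. At 100 ppb the median change was -3.93, and 198 genes were called lower (37.5% of all genes). The 6 genes that met the limit on the mean only in growing leaves of day 2 under ozone are in both counts, and a high day 2 value let them in. Among the 194 others, 193 were called lower at 80 ppb and 192 at 100 ppb. The 2 comparisons share no library, and all 198 were among the 199. The exception at 80 ppb was Potri.004G155400, with 669 ± 451 on day 13 and 344 ± 114 on day 2, a change of 0.78 ± 1.02 with an adjusted p of 0.494. At 100 ppb the same gene had 186 ± 152 on day 13 and 484 ± 290 on day 2 (-1.54 ± 1.02, adjusted p 0.161), and the other exception, Potri.006G033500, had 194 ± 57.1 and 276 ± 105 (-0.47 ± 0.33, adjusted p 0.194).

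The steepest falls emptied a gene of nearly all its reads. Potri.011G140400 had 11.6, 82.8, 0 and 84.4 in growing leaves at 80 ppb on day 13, against 14209, 14495, 12159 and 18164 on day 2. The change was -9.72 ± 1.2, with an adjusted p of 2.74e-10 in limma. At 100 ppb it had 18.5, 11.1, 0 and 47.4 on day 13, against 13020, 26658, 11367 and 17403 on day 2, a change of -10.61 ± 1.2. Potri.004G114300 had 38.1, 17.7, 6.19 and 37.4 at 80 ppb on day 13, against 6173, 5341, 3957 and 6195 on day 2, a change of -7.97 ± 0.73. Potri.019G125000 had 24.6, 36.9, 5.35 and 38.1 at 100 ppb on day 13, against 10760, 13146, 9026 and 9556 on day 2, a change of -8.89 ± 0.74. In each of these the groups were far apart, and no alternative ended the call.

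Expanded leaves at 80 ppb fell as well, from a lower start. Day 13 was below day 2 by a median change of -2.15, with 191 genes below 0. Of the 200, 173 were called lower and 1 higher in limma, where 28.0% of all genes were called lower and 28.3% higher. Equal library totals moved the all-gene median to 0.43 and the all-gene split to 4632 lower and 14751 higher, against 7776 and 7871, while the median of the 200 genes was -1.75. Potri.001G141701 had 2.96, 3.16, 5.58 and 6.48 on day 13, against 727, 905, 750 and 630 on day 2. The change was -7.13 ± 0.43, with an adjusted p of 3.62e-19 and no overlap between the days. The gene called higher was Potri.010G190600, with 72.7 ± 45.2 on day 13 and 24.5 ± 13.9 on day 2 (1.45 ± 0.60, adjusted p 0.0354), although its groups overlapped.

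The 2 ozone levels were then compared in growing leaves. On day 2 the median change of 100 ppb against 80 ppb was 0.10, with 61 genes below 0. limma, edgeR and DESeq2 called 0 of the 200 (limma called 0.0% of all genes lower), and 1 had an unadjusted p under 0.05 (8.16% of all genes). Among the 194 genes alone the median was 0.10, with 0 called and 61 below 0. On day 13 the median change was -0.58, with 184 genes below 0. There 27 genes fell and 1 rose in limma, where 3.92% of all genes were called lower and 11.0% higher. The groups did not overlap for 16 of the lower genes (4.43% of all genes). At an unadjusted p under 0.05 there were 73 genes, 72 of them lower (10.7% of all genes were lower). edgeR called 41 lower (4.65% of all genes) and DESeq2 49 (5.07%).

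This count too moved with single libraries. Without replicates 1, 2, 3 and 4 at 100 ppb it was 41, 16, 4 and 11, and without those at 80 ppb 15, 12, 53 and 9. With the 8 compared libraries alone it was 0. Replicate 3 at 80 ppb had the lowest median level of its group, 5.17, and replicate 3 at 100 ppb the lowest of its own, 4.51. Among the called genes whose groups did not overlap, Potri.019G125000 had the largest fall, with 24.6, 36.9, 5.35 and 38.1 at 100 ppb, against 193, 192, 48.5 and 458 at 80 ppb. Its change was -2.95 ± 0.74, with an adjusted p of 0.00591 in limma, which was lost without 80 ppb replicate 4 or 100 ppb replicate 3 (0.000244 to 0.109 over all alternatives). Potri.006G114400 came next, with 9.67, 18.5, 8.40 and 7.43 at 100 ppb, against 57.2, 42.4, 21.7 and 33.6 at 80 ppb. Its change was -1.73 ± 0.37, with an adjusted p of 0.00249. The gene that rose, Potri.006G033500, had 189, 168, 144 and 275 at 100 ppb, against 82.9, 77.9, 76.4 and 104 at 80 ppb. Its change was 1.15 ± 0.33, with an adjusted p of 0.0146 in limma, lost without 100 ppb replicate 4 (0.00492 to 0.108 over all alternatives). With the compared libraries alone these 3 genes all lost the call.

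Of the 96 genes called lower at 100 ppb in expanded leaves of day 8 and the 27 called lower in growing leaves of day 13 against 80 ppb, 16 were the same, 16.7% of the first list and 59.3% of the second. Of all 200 genes, 48.0% were in the first list, and the difference from that share was not tested. The 2 comparisons share no library. The extra fall from day 2 to day 13 at 100 ppb over that at 80 ppb in growing leaves had a median of -0.76, with 187 genes below 0. limma called 0 of the 200 (0.216% of all genes were called lower), with 49 at an unadjusted p under 0.05, of which 48 were lower (7.0% of all genes). Without the 6 genes let in by growing leaves of day 2 the median was -0.75, with 0 called and 48 at an unadjusted p under 0.05. edgeR called 3 lower (0.374% of all genes). DESeq2 called 14 lower (1.23% of all genes) and 1 higher (3.46% of all genes). The count was also above 0 without 80 ppb replicate 4 (1) or 100 ppb replicates 1 (4) or 3 (1) of day 2, and without 80 ppb replicate 3 (10) or 100 ppb replicate 1 (14) of day 13.

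Comparisons that use libraries of the choice are given as values only. In expanded leaves of day 13 the median difference of 80 ppb from control was -0.45, with 158 genes below 0, and that of 100 ppb from 80 ppb was -1.46, with 192 below 0. In growing leaves of day 13, 100 ppb differed from control by a median of -0.78, with 185 genes below 0, and 80 ppb by -0.20, with 154 below 0. The control group of growing leaves of day 13 helped to choose the genes, which the rule required to be low there. In control expanded leaves, day 13 was below day 2 by a median of 1.68 log2 units (difference -1.68), with 188 genes below 0. Growing control leaves exceeded expanded control leaves by a median of 2.27 on day 2 and 0.90 on day 13.

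The genes followed one another closely over the 12 groups outside the 3 differences that chose them. The Spearman correlation of each gene's group means with the median of the set had a median of 0.97 over the 200 genes, with 173 genes at 0.9 or more, 168 of them among the 194 that met the limit on the mean in the other 6 groups. It was under 0.5 for 5 genes, the lowest being Potri.008G034100 at -0.07, which met that limit only in growing leaves of day 2 at 100 ppb. That gene had group means of 91.0 in control air, 61.4 at 80 ppb and 249 at 100 ppb in growing leaves of day 2, and under 10 in every other group. The groups share leaf age as their main difference, so these values describe the course of the set and carry no test.

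**Figure D4:**
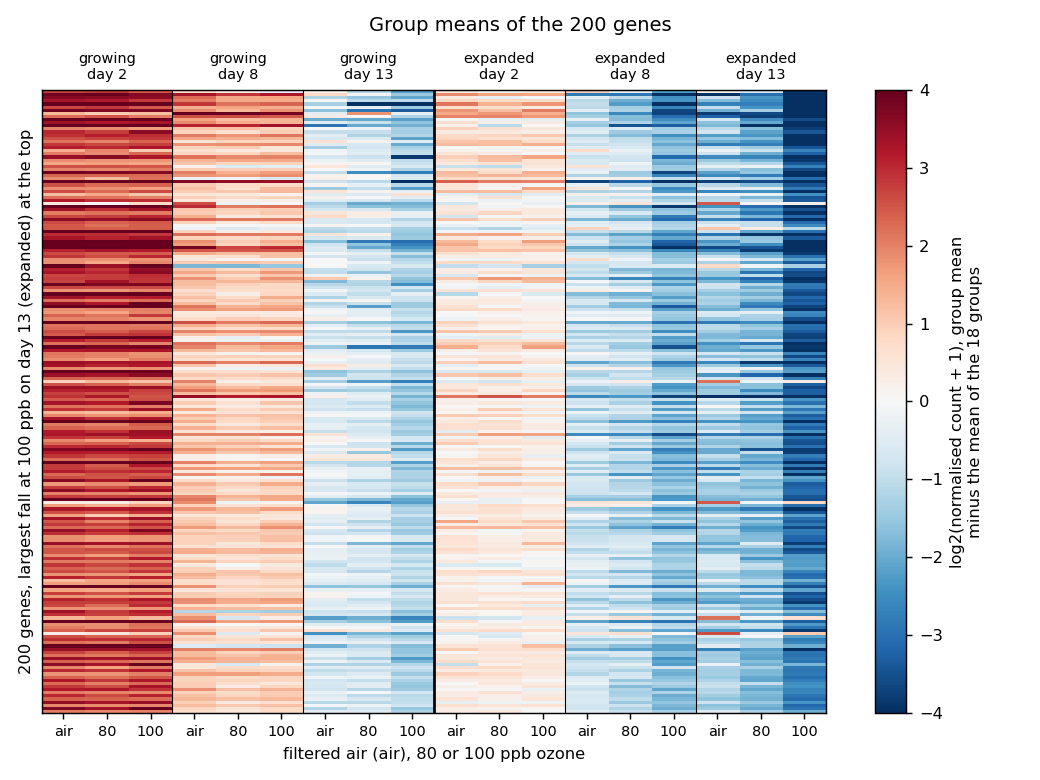
Group mean of log2(normalised count + 1) minus the mean over the 18 groups, for each of the 200 genes (rows, the largest day 13 difference at the top) in growing leaves (left) and expanded leaves (right) by day and treatment. Nearly all rows go from high (red) in growing leaves of day 2 to low (blue) in expanded leaves at 100 ppb on day 13, and 5 rows are red in control expanded leaves of day 13.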

How the data were processed

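Messenger RNA was selected with poly-T beads, made into stranded libraries and read in pairs of 150 bases, per the labels' protocols. The authors deposited a signal per gene and library, named normalised counts; the submitters' processing notes name DESeq2 1.24.0, Subread 1.6.1, featureCounts and TopHat2 2.12. The genome build used by the authors was not given in the sources used here. Within a tolerance of 0.01 reads, 100% of the deposited values were whole reads divided by a factor per library (in 2 libraries this factor was within 0.01 of 1, so their values lie near whole numbers as deposited), so edgeR 4.0.16 (quasi-likelihood) and DESeq2 1.42.0 could be run as alternatives on the recovered reads.

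The main test was limma 3.58.1 in R 4.3.3 on log2(value + 1), fitting 18 group means to all 72 libraries jointly, and eBayes with a trend, two-sided, with Benjamini-Hochberg adjustment over the 27780 genes that reached a value of 10 in 4 or more libraries. Calls are at an adjusted p under 0.05. The fit was checked on simulated counts with known changes. These changes were placed only in genes above a limit on the mean, so the check does not cover low genes.

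The members, lists and tests were chosen with earlier results of these data known. Named genes are the 2 with the most negative day 13 difference, the 2 with the highest mean in growing control leaves of day 2, and, among the called genes whose groups did not overlap, up to 2 in each direction with the largest change. This last step was set for 100 ppb in expanded leaves of day 8 and for growing leaves of day 13. It was applied to the other comparisons after the data were seen, as was naming exceptions. Lists by product, marker genes and promoter motifs were planned but not made, since no table used here pairs the identifiers with names or sequences.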

Additional observations from a re-analysis of the deposited data

Results flagged for a closer look

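In groups of 4, a library was singled out when its gap to the nearest of the others was large for the range of the group. Of 52 groups tested, 4 held such a library, where chance gives about 5%. In expanded control leaves of day 8, replicate 2 had a median level of the 200 genes of 5.80, where the other 3 libraries had 5.35 to 5.40. In growing leaves at 80 ppb on day 13, replicate 3 had 5.17, below the 5.90 to 5.96 of the others. Potri.006G250100 had a normalised count of 122 in replicate 2 of expanded leaves at 100 ppb on day 8, above 1.12 to 17.1 in the others. It had 227 in replicate 4 of expanded control leaves on day 8, above 31.2 to 41.0 in the others. The effect of leaving out some of these libraries on the counts of calls is given beside the comparisons. For the rest, only the range over all left-out libraries is given, in the next section.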

How the results depend on the processing

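Counts are of the 200 genes called in the direction of the main result. The members' medians kept their sign under TMM scaling and equal totals in all 13 comparisons. Equal totals shifted the median of all genes by over 0.1 in 3 of them, to -0.32 for growing against expanded control leaves on day 8, 0.43 for expanded leaves at 80 ppb over time, and 0.14 for growing leaves at 100 ppb over time; the members' medians there were 1.57, -1.75 and -3.84. With the compared libraries alone, calls in expanded leaves of day 8 were 39 for 100 ppb against control and 0 against 80 ppb; they were 0 for 100 ppb against 80 ppb in growing leaves of day 13, and 2 for the difference of responses between the positions. DESeq2 called 56, 49 and 2 in the last 3 of these comparisons, and edgeR 41 in growing leaves of day 13. For the extra fall over time at 100 ppb in growing leaves, 0 in the main fit, the count was 2 with a pseudocount of 8, 1 with a filter at 50, 1 with a replicate block, 3 in edgeR and 14 in DESeq2. With a pseudocount of 8 in the rule, 246 genes met it. Leaving out single libraries gave counts of 44 to 114 for 100 ppb against control in expanded leaves of day 8, 0 to 71 against 80 ppb there, and 4 to 53 for growing leaves of day 13. The range was 0 to 14 for the extra fall, 153 to 166 for growing against expanded leaves, 197 to 199 and 198 to 198 over time in growing leaves at 80 and 100 ppb, 166 to 176 over time in expanded leaves at 80 ppb, and 0 to 1 for the difference between positions. It was 0 to 0 in the others, and 403 to 570 genes met the rule. Of 324 values of named genes under alternatives, 303 kept their side of the threshold, 16 lost the call, 5 gained it and 0 changed sign.

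Same-numbered libraries did not deviate together throughout (correlations of -0.19 to 0.48), so the numbers were not taken to pair them. All 4 correlations were above 0.1 for growing with expanded leaves at 100 ppb on day 8 (0.125 to 0.25). Those of the control groups in the same comparison were not. Growing leaves at 100 ppb with those at 80 ppb reached higher values, with 0.066 to 0.35 on day 2 and -0.096 to 0.48 on day 13. For day 2 the replicate block left 0 calls, as without it. With the replicate block, the difference of responses between the positions had 0 calls, as without it. The block fits a shift per replicate number common to all 18 groups. It therefore cannot take up a pairing present in only some of them, and these counts do not settle whether such pairing matters. The replicate block gave 103 for 100 ppb against control and 44 against 80 ppb in expanded leaves of day 8, and 27 in growing leaves of day 13. The causes of these shifts were not tested. Many of the genes had few reads in some groups, and 109 of the 200 had a mean under 10 in expanded leaves at 100 ppb on day 13.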

Other observations

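Some differences between groups of unlike age or treatment were measured without a test. In expanded leaves, the 200 genes at 100 ppb on day 8 differed from those at 80 ppb on day 13 by a median of -0.04 log2 units, with 104 of 200 below 0. In growing leaves at 100 ppb on day 13 they differed from expanded control leaves of day 8 by a median of -0.40, with 154 below 0. From day 8 to day 13, growing leaves fell by a median of 2.24 log2 units at 100 ppb and by 1.51 at 80 ppb. From day 2 to day 8 they fell by 1.66 at 100 ppb, 1.69 at 80 ppb and 1.46 in control air.

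By the chromosome number in the identifiers, the set spread over all 19 chromosomes, with 3.0% of the set on chromosome 10 (6.68% of tested genes) and 7.5% on chromosome 16 (3.70% of tested genes). In the order of the table, 5 pairs of members were neighbours, and 20 members had another within 5 rows. Whether neighbouring members share reads was not tested, apart from the pair with identical reads.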
